A study of Mus musculus with 16 samples.

Results

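Transcripts of 7 T cell checkpoint genes, Ctla4, Pdcd1, Lag3, Havcr2, Tigit, Btla and Cd200, were followed in mouse CD4+ T cells transfected with a miR-23a, miR-24, miR-27a or control mimic. Their rows were taken from the files by symbol. They are 7 of the 23337 gene symbols in the count files, and 7 of the 12952 genes that passed the filter on low counts, so none was lost to it. All of the cells lacked Dgcr8, needed to make most microRNAs, after deletion by a CD4-driven Cre (Dgcr8f/f CD4-cre), and lacked Tbx21 (Tbet-/-), the T-bet factor of Th1 cells. The mice were C57BL/6, and cells positive for the RosaYFP reporter were sorted. Each mimic, a synthetic double-stranded microRNA, was given to 4 libraries, 16 in all, and the control group carries the same deletions as the mimic groups. The cells had been activated through CD3 and CD28 for 3 days with 10 units/ml of IL-4, rested for 2 days in IL-2 and given 500 nM of mimic on days 1 and 4. The measured values therefore describe previously activated, microRNA-poor cells rather than freshly isolated ones.

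Checkpoint receptors restrain T cells that have already been activated. CTLA-4 takes the ligands CD80 and CD86 away from the activating receptor CD28, PD-1 (Pdcd1) carries phosphatases to the activated T cell receptor complex, LAG-3 binds MHC class II, TIM-3 (Havcr2) binds galectin-9 among other ligands, TIGIT competes with CD226 for CD155, and BTLA binds the TNF receptor family member HVEM (Tnfrsf14). CD200 is on the other side of such a pair: it is a surface ligand whose receptor, CD200R, sits mostly on myeloid cells, so the gene group holds 6 receptors and 1 ligand. The microRNAs miR-23a, miR-27a and miR-24 come from 1 transcribed cluster, and a microRNA lowers messages that pair with its seed, mostly in the 3-prime UTR.

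Which arm of each microRNA the mimics carry, and with what sequence, is not stated in the labels, and 3p arms were assumed here. The mature sequences, from RefSeq on GRCm38.p6, are shown because their seeds (bases 2 to 8, in capitals) define the sites searched for in the checkpoint genes, and no pair of them shares a seed.
miR-23a-3p: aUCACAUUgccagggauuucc
miR-24-3p: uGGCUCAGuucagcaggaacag
miR-27a-3p: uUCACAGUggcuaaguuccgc

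For every gene the longest 3-prime UTR annotated in GENCODE M21 (GRCm38) was read on the sense strand for matches, as 8mer, 7mer-m8 and 7mer-A1 sites. The 8mers were AATGTGAA for miR-23a, CTGAGCCA for miR-24 and ACTGTGAA for miR-27a, and the 7mers are the first and the last 7 bases of each, counted only outside an 8mer. Btla and Cd200 were the members with a match, and Ctla4, Pdcd1, Lag3, Havcr2 and Tigit had none in UTRs of 81 bases (Lag3) to 1809 bases (Havcr2). The 4 sites are printed 5-prime to 3-prime with flanking bases, the match in capitals. They lie at chr16:45251092-45251099, chr16:45251335-45251341 and chr16:45250606-45250613 on the plus strand for Btla and at chr16:45383394-45383400 on the minus strand for Cd200.
Btla, miR-23a 8mer: ttattttttttAATGTGAAagaaaaattat
Btla, miR-23a 7mer-m8: taacgcacatgAATGTGAttcaatgctgc
Btla, miR-24 8mer: acctgccaCTGAGCCAggcagcctaca
Cd200, miR-23a 7mer-A1: acttgaatctgATGTGAAagaaaagcagg
Thus 2 of 7 members held a miR-23a match, 1 of 7 a miR-24 match and 0 of 7 a miR-27a match. Among 11022 tested genes with a UTR that could be searched, 25.5% held a miR-23a match, 27.1% a miR-24 match and 29.99% a miR-27a match. A match is a description of the sequence and does not show that the mimic acts there.

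**Figure D1:**
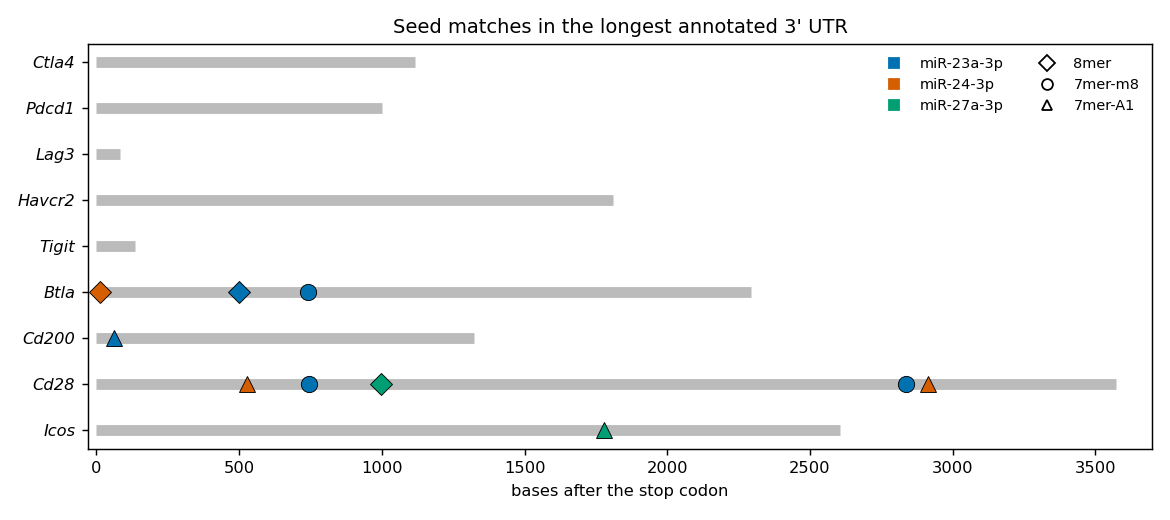
Position of seed matches in the longest annotated 3-prime UTR (grey bar, in bases after the stop codon) of the 7 checkpoint genes and of Cd28 and Icos, with colour for the microRNA and symbol for the kind of site. Btla carries 3 matches and Cd200 1, while the other members carry none; the single 8mer in Cd28 is for miR-27a.

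Reads counted in genes ranged from 2120408 to 13714841 in 15 libraries, while control replicate 1 held 51474, so that 1 read there equals 16.3 CPM (reads of a gene relative to a TMM-scaled library total) and 3 reads 48.8 CPM. That library had 10 reads of Ctla4, 1 of Btla and 0 of the other 5 members, and a 0 there allows up to 48.8 CPM, counting error only. Its zeros are therefore given but not read as low expression, and control means below leave it out and state n = 3. The series text speaks of biological replicates but ties no library to a mouse, so p-values measure the spread between libraries, which may be technical. Defining T cell genes were abundant (Cd3e had a median of 775 CPM and Cd4 of 556 CPM), the NK genes Ncr1 and Klra8 were at 0 in all 16 libraries, and summed B, dendritic and myeloid cell markers reached at most 25.5, 20.3 and 17.8 CPM. Foxp3, the regulatory T cell factor, was at 1.41 to 16.3 CPM, the highest from 1 read in control replicate 1. The summed regulatory T cell markers, most of which came from Il2ra, also an activation gene (median 5376 CPM), were at 5500.2 to 10052 CPM with miR-23a, 4531 to 6951 CPM with miR-24, 3309 to 7653 CPM with miR-27a and 6127 to 11528.5 CPM in control libraries, and the CD8 T cell markers summed to at most 35.7 CPM. The share of the 45S ribosomal precursor Rn45s was 1.77% to 10.5% of gene reads with miR-23a, 1.65% to 19.1% with miR-24, 1.17% to 10.2% with miR-27a and 0.30% to 4.41% in control libraries, and the summed CD4 T cell markers (5 genes, Cd28 included) ran from 3103 to 4035 CPM with miR-23a, 2435 to 3154 CPM with miR-24 and 2442 to 3013 CPM with miR-27a, against 3760 to 4474 CPM in the 3 deeper control libraries. Of those 5 genes, estimates were higher for 3 and lower for 2 with miR-27a (median 0.080, Cd28 the one called), and higher for 1 and lower for 4 with miR-24 (median -0.51, none called). The summed follicular helper T cell markers (5 genes, Tox2 included) ran from 58.8 to 234 CPM with miR-23a and 50.1 to 135 CPM with miR-24. They ran from 36.2 to 102 CPM with miR-27a and 49.0 to 153 CPM in control libraries. Of the 4 tested, 1 was called lower with miR-24 over control, and none with miR-23a or miR-27a. For miR-23a against miR-24, 2 were called higher and 1 lower. Of the 7 regulatory T cell markers, 1 was called lower with miR-24 over control (0 without control replicate 1). With miR-27a over control 1 was called higher and 1 lower, and with miR-23a none. Between miR-23a and miR-24, 1 of these 7 was called higher with miR-23a and 1 lower. The part of these differences in the results below was not tested. In bulk RNA, fewer cells of a type and less RNA per cell cannot be told apart.

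Per kilobase of exon, Ctla4 was the most abundant member, with a mean of 86.0 ± 45.0 CPM per kilobase (SD, n = 15 libraries, control replicate 1 left out). Tigit followed at 43.9 ± 15.3, Btla at 23.8 ± 14.3 and Cd200 at 16.2 ± 11.1 CPM per kilobase. Lag3 at 4.01 ± 2.80, Havcr2 at 3.84 ± 2.49 and Pdcd1 at 2.45 ± 1.73 CPM per kilobase formed a low tier. Neighbours in this order overlapped over libraries in every case. Ctla4 exceeded Tigit in 13 of 15 libraries, Tigit exceeded Btla in 11, Btla exceeded Cd200 in 12 and Cd200 exceeded Lag3 in 14, while Lag3 exceeded Havcr2 in only 6 of 15. Their order differed by group, with Lag3 the higher mean for miR-23a (6.42 over 2.97 CPM per kilobase of Havcr2) and by little for miR-27a (3.39 over 3.07), and the lower one for miR-24 (3.76 under 4.33) and in the 3 deeper control libraries (1.95 under 5.39). Depth limits the low tier: in the shallowest mimic library, miR-27a replicate 2, Pdcd1 rested on 3 reads and Havcr2 on 7.

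**Figure D2:**
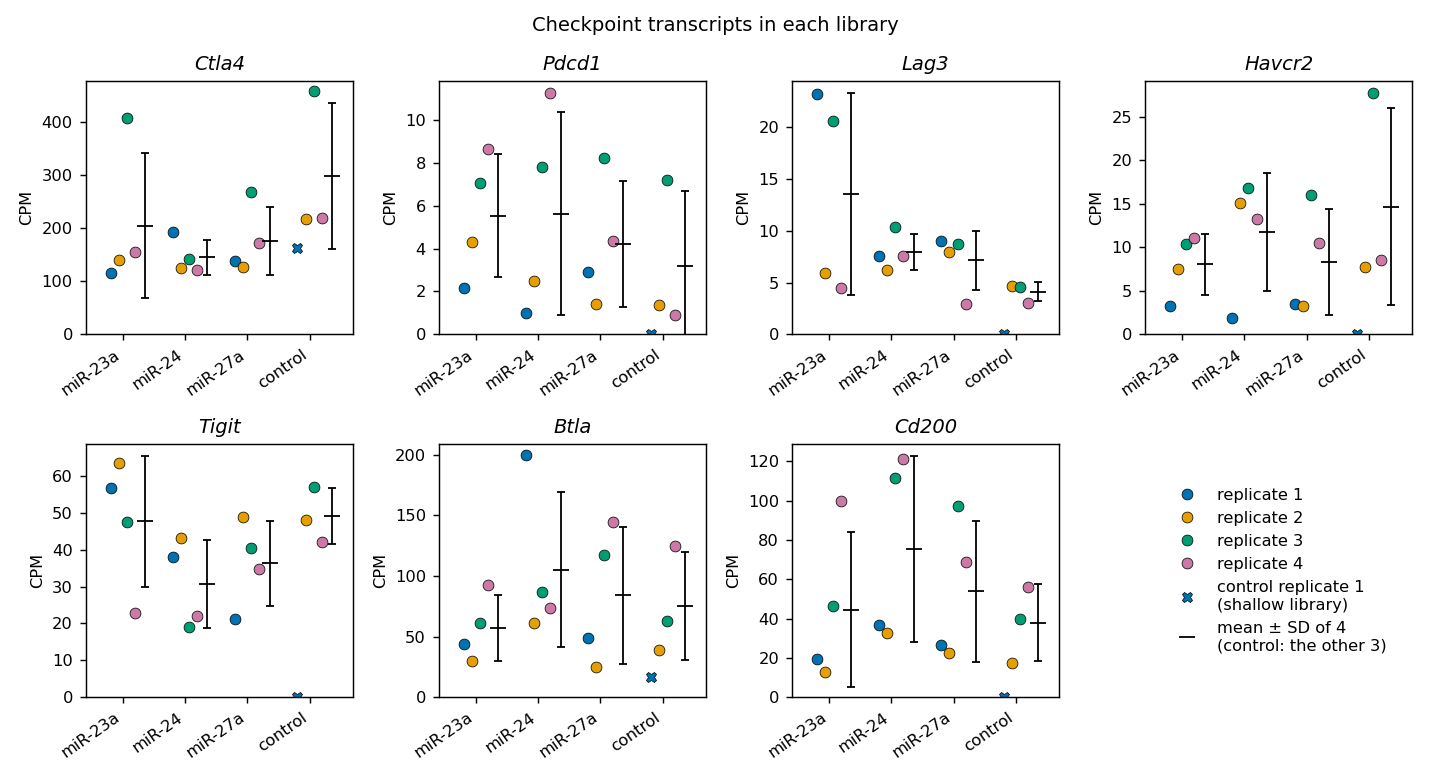
Level of each checkpoint transcript (CPM, linear axis) in every library, by mimic group and coloured by replicate number, with the mean ± SD of the 4 mimic libraries or the 3 deeper control libraries beside each group; the cross is the shallow control replicate 1, which is not in the mean. Cd200 with miR-24 lies between 32.4 and 121 CPM, and in each group of Cd200 the libraries numbered 3 and 4 lie above those numbered 1 and 2.

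The design asks how each mimic, added back to cells without most of their own microRNAs, changes these transcripts relative to the control mimic. Genes were tested with edgeR's quasi-likelihood test, two-sided, in 1 fit of all 16 libraries that took the replicate number as a block, and adjusted p-values are Benjamini-Hochberg values over the 12952 genes at 0.05. With miR-24, 1 of 7 members passed against control (Cd200, higher with miR-24), where 4.56% of all genes were called in either direction. For miR-23a over control 0 of 7 members passed (0.425% of all genes), and for miR-27a over control 0 of 7 (3.07% of all genes); DESeq2 and limma also called 0 of 7 in both. At an unadjusted p of 0.05, 2 members were below it with miR-23a (Pdcd1 and Lag3), 2 with miR-24 (Ctla4 and Cd200) and 2 with miR-27a (Ctla4 and Cd200). Of the 12952 genes, 2202, 2624 and 2818 were below it in those comparisons. These 3 comparisons share their control libraries. In the test for any difference among the 4 groups, 1 of 7 members passed (Cd200, adjusted p = 0.0226), against 9.68% of all genes. Without the replicate block, 0 of 7 members passed in any comparison. The shares of all genes called were then 0.131%, 0.849% and 0.17% for the miR-23a, miR-24 and miR-27a mimics over control, 0.88% for miR-24 against miR-27a, 1.1% for miR-23a against miR-24, 0.548% for miR-23a against miR-27a and 1.94% over the 4 groups.

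**Figure D3:**
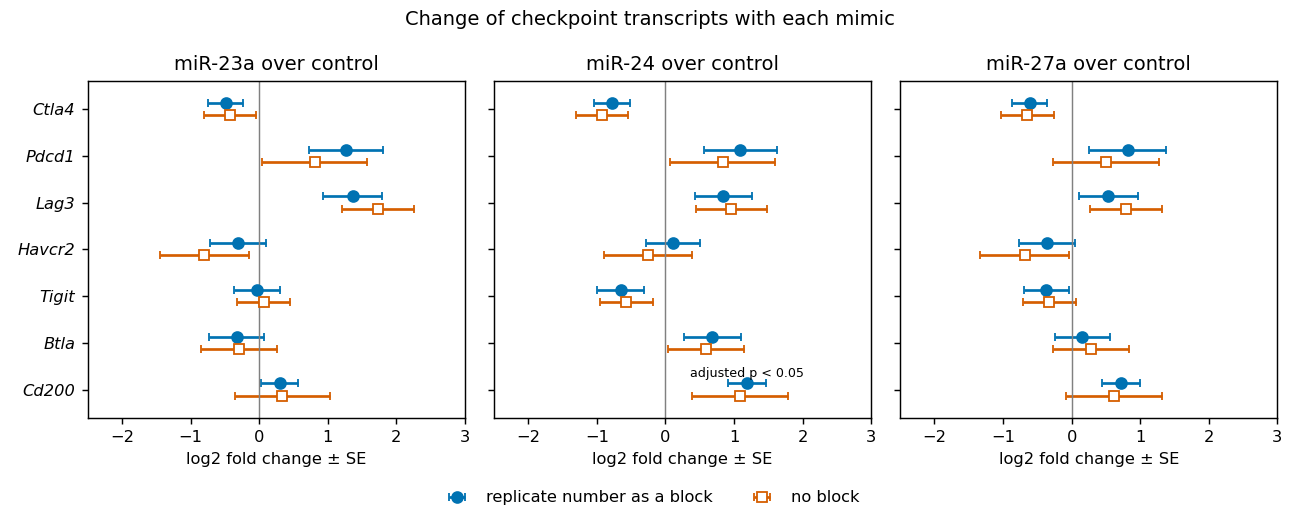
Log2 fold change of each member for miR-23a, miR-24 and miR-27a over control (points, with SE bars), fitted with replicate number as blocking factor (filled) and without it (open). Cd200 with miR-24 is the one value past the adjusted threshold with the block (1.19 ± 0.27), and its estimate without the block (1.09) has a wider SE (0.70).

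Cd200, the ligand of CD200R, was higher with miR-24 and was the one member to pass. It stood at 36.9, 32.4, 112 and 121 CPM with miR-24, in replicate order, against 0, 17.5, 39.9 and 56.2 CPM with the control mimic. The groups overlapped, because the numbers 3 and 4 were high in both, but within each of the numbers 2, 3 and 4 the miR-24 library was the higher one, by 0.88, 1.48 and 1.10 on the log2 scale. The log2 fold change was 1.19 ± 0.27 (SE, adjusted p = 0.0202), and 1.15 (adjusted p = 0.0282) without control replicate 1. Mean levels were 75.5 ± 47.3 CPM with miR-24 (SD, n = 4) and 37.9 ± 19.5 CPM with control (n = 3).

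The Cd200 call rests on the block and on single libraries. Without the block the fold change was 1.09 with an adjusted p of 0.525, and same-numbered miR-24 and control libraries did not all deviate together over genes (correlation above 0.1 in 3 of 4 pairs). The call was kept in 4 of 8 fits that left out 1 library of either group, and was lost without miR-24 replicate 2 (adjusted p = 0.0805), miR-24 replicate 3 (0.0849), control replicate 3 (0.139) or control replicate 4 (0.0697). The UTR of Cd200 held no match to the miR-24 seed.

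With the other mimics Cd200 stood at 19.6, 12.5, 46.2 and 99.9 CPM for miR-23a and at 26.5, 22.5, 97.5 and 68.7 CPM for miR-27a. Against control, neither passed: the log2 fold change was 0.30 ± 0.27 with miR-23a (adjusted p = 0.595) and 0.72 ± 0.28 with miR-27a (adjusted p = 0.149). The miR-27a value passed when the miR-27a and control libraries were fitted alone (0.69, adjusted p = 0.039). Set directly against each other, Cd200 was lower with miR-23a than with miR-24, by -0.90 ± 0.25 (adjusted p = 0.0413), and the miR-23a library was the lower one in 4 of 4 same-numbered pairs. Here all 4 same-numbered correlations passed 0.1 (lowest 0.350), but without the block the adjusted p was 0.742, and the call was kept in 2 of 8 fits that left out 1 library. It was lost without miR-23a replicate 1 (0.109), 2 (0.116) or 3 (0.186) and without miR-24 replicate 1 (0.0749), 2 (0.118) or 3 (0.14). The single match in Cd200 is for miR-23a, the 7mer-A1 printed above.

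**Figure D4:**
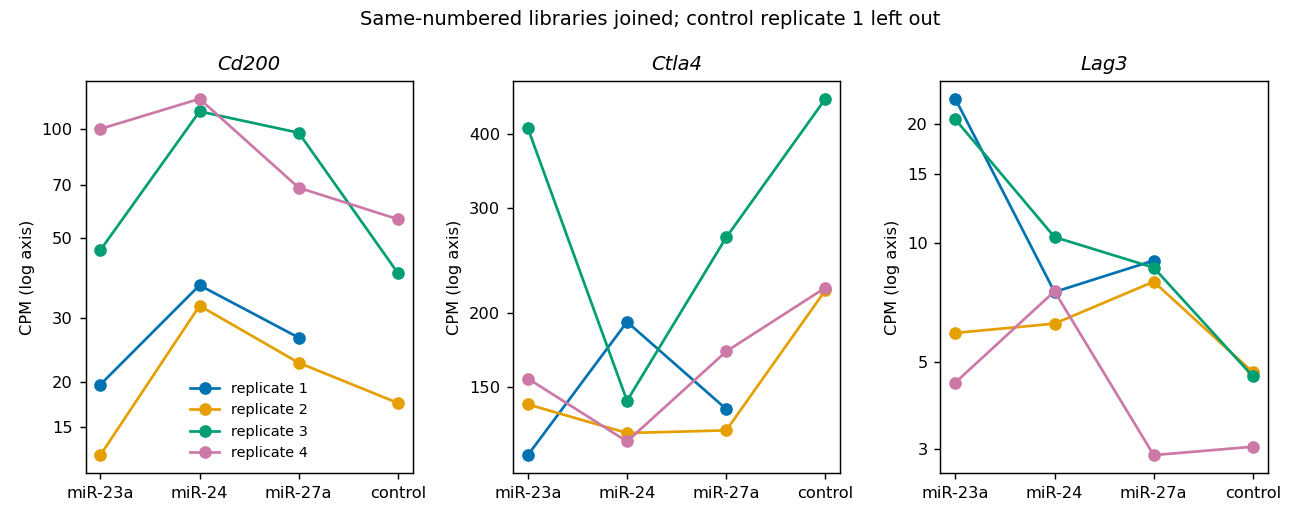
Levels of Cd200, Ctla4 and Lag3 (CPM, log axis) with libraries of the same replicate number joined across the mimic groups; control replicate 1 is left out. For Cd200 the miR-24 point is the highest of its line for all 4 numbers, and for Ctla4 the control point is the highest of its line for the numbers 2, 3 and 4.

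Ctla4, the most abundant member, had negative estimates with every mimic but passed in none of the comparisons. It stood at 115, 140, 409 and 155 CPM with miR-23a, at 193, 126, 142 and 121 CPM with miR-24, at 138, 127, 268 and 172 CPM with miR-27a, and at 163, 218, 459 and 221 CPM with the control mimic. In the numbers 2, 3 and 4 the mimic library was below its control library in all 9 pairs, and with miR-24 every library was below all 3 deeper control libraries, a separation seen for 6.1% of genes in that direction. The 9 pairs reuse the same 3 control libraries. In number 1 the control value rests on 10 reads. There the log2 difference was 0.25 with miR-24, -0.50 with miR-23a and -0.24 with miR-27a. Replicate 3 stood apart upwards in the miR-23a, miR-27a and control groups and not in the miR-24 group.

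The log2 fold changes of Ctla4 were -0.49 ± 0.25 with miR-23a (adjusted p = 0.328), -0.78 ± 0.26 with miR-24 (adjusted p = 0.0972) and -0.61 ± 0.26 with miR-27a (adjusted p = 0.184). The miR-24 value passed in 1 of 8 fits that left out 1 library. That was the fit without miR-24 replicate 1, the highest of its group (-1.07, adjusted p = 0.00529), where 1490 of all genes were called, against 591. Over these fits the estimate ran from -1.07 to -0.49, with adjusted p-values of up to 0.389. Limma with sample weights gave -1.17 (adjusted p = 0.0475). The miR-27a value passed when those groups were fitted alone (-0.61, adjusted p = 0.0069). No seed match of the mimics lay in the Ctla4 UTR of 1115 bases.

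Lag3, a CD4-related receptor for MHC class II, had the largest positive estimate with miR-23a. Its levels were 23.2, 5.92, 20.6 and 4.43 CPM with miR-23a, 7.52, 6.25, 10.4 and 7.55 CPM with miR-24, 9.03, 7.98, 8.67 and 2.90 CPM with miR-27a, and 0, 4.71, 4.59 and 3.05 CPM with control. The miR-23a group splits, with the numbers 1 and 3 high and the numbers 2 and 4 close to the control libraries, whereas all 4 miR-24 libraries lay above the 3 deeper control libraries, as did 5.38% of genes. The log2 fold changes were 1.37 ± 0.43 with miR-23a (unadjusted p = 0.00498, adjusted p = 0.145), 0.85 ± 0.41 with miR-24 (adjusted p = 0.259) and 0.54 ± 0.43 with miR-27a (adjusted p = 0.475), so no difference passed.

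Pdcd1, which encodes PD-1 and is held down by T-bet in mouse CD8 T cells, was the least abundant member. It stood at 2.15, 4.33, 7.04 and 8.64 CPM with miR-23a, 1.00, 2.47, 7.81 and 11.2 CPM with miR-24, 2.90, 1.41, 8.21 and 4.35 CPM with miR-27a and 0, 1.37, 7.21 and 0.914 CPM with control. The groups overlapped, since the control library numbered 3 lay among the high mimic libraries. Its estimates against control were 1.26 ± 0.54 for miR-23a, 1.09 ± 0.54 for miR-24 and 0.82 ± 0.56 for miR-27a, with adjusted p-values of 0.249, 0.26 and 0.397.

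Havcr2, which encodes TIM-3, ran from 3.32 to 11.1 CPM with miR-23a, from 1.84 to 16.8 CPM with miR-24, from 3.29 to 16.04 CPM with miR-27a and from 7.74 to 27.7 CPM in the 3 deeper control libraries. Its estimates were -0.31 ± 0.41, 0.10 ± 0.39 and -0.35 ± 0.41 for miR-23a, miR-24 and miR-27a over control, none past the threshold. The miR-24 sign turned without the block (-0.25).

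Tigit, the CD155 receptor, stood at 56.8, 63.5, 47.4 and 22.9 CPM with miR-23a, 38.1, 43.3, 19.0 and 22.0 CPM with miR-24, 21.3, 48.8, 40.4 and 34.8 CPM with miR-27a and 0, 48.1, 57.0 and 42.1 CPM with control. The miR-24 library was below its control library in all 3 of the pairs numbered 2 to 4. The estimates were -0.033 ± 0.34 for miR-23a, -0.65 ± 0.34 for miR-24 and -0.37 ± 0.33 for miR-27a (adjusted p = 0.976, 0.293 and 0.528).

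Btla, the HVEM receptor, holds 8mers for miR-23a and for miR-24. Its levels were 43.7, 29.8, 61.6 and 92.8 CPM with miR-23a, 199.99, 61.2, 86.4 and 73.8 CPM with miR-24, 49.0, 24.9, 118 and 145 CPM with miR-27a and 16.3, 38.5, 62.7 and 125 CPM with control. With miR-23a it was below its control library in the 3 pairs numbered 2 to 4, at -0.33 ± 0.40 (adjusted p = 0.703), and with miR-24 it was at 0.68 ± 0.42 (adjusted p = 0.384) and with miR-27a at 0.16 ± 0.40 (adjusted p = 0.854). Between mimics, Btla was at -1.01 ± 0.39 with miR-23a against miR-24 (adjusted p = 0.166). It passed in 1 of 8 fits that left out 1 library, that without miR-24 replicate 4 (adjusted p = 0.0153). Over these fits the estimate ran from -1.38 to -0.40, with adjusted p-values of up to 0.565. The 199.99 CPM of miR-24 replicate 1 is the highest Btla value of all libraries.

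Between mimics, Cd200 for miR-23a against miR-24 was the sole member to pass (1 of 7, against 5.38% of all genes). For miR-24 against miR-27a, 0 of 7 members passed (4.42% of genes), and for miR-23a against miR-27a 0 of 7 (2.95% of genes). The member estimates ran from -0.29 (Tigit) to 0.53 (Btla) for miR-24 against miR-27a and from -0.48 (Btla) to 0.83 (Lag3) for miR-23a against miR-27a. Over the members, the median log2 fold change was -0.033 for miR-23a, 0.68 for miR-24 and 0.16 for miR-27a over control, where all tested genes had medians of 0.041, 0.042 and 0.020. With miR-24 the members ran from -0.78 (Ctla4) to 1.19 (Cd200), and the median is the Btla estimate, which did not pass. The quartiles of all tested genes were then -0.29 and 0.43. The 7 members were not tested as a set.

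Several members also differed between replicate numbers. In an F test of the replicate number within the same fit, chosen after the values were seen, 4 of 7 members passed (Cd200, adjusted p = 2.44e-05, Havcr2, 0.00532, Pdcd1, 0.0163, and Ctla4, 0.0174), against 13.7% of all genes. Btla (0.0593), Lag3 (0.101) and Tigit (0.339) did not. Without control replicate 1 the same 4 members passed, with 11.9% of genes called. Across all groups, Cd200 lay between 12.5 and 36.9 CPM in the libraries numbered 1 and 2 that had reads of it and between 39.9 and 121 CPM in those numbered 3 and 4. Adjusted for mimic, Havcr2 was 2.53 and Pdcd1 2.31 higher in replicate 3 than in replicate 1 on the log2 scale. The labels do not say what a replicate number stands for, so mouse, day and lane cannot be told apart.

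The genes that the checkpoint proteins act with were read from lists by role. Their called counts stand beside shares called among all genes of 4.56% for miR-24, 3.07% for miR-27a and 0.425% for miR-23a over control. Of 13 tested genes for ligands and binding partners, 3 were called higher and 0 lower with miR-24 (estimates higher for 7 and lower for 6, list median 0.38), and 1 was called higher and 0 lower with miR-27a (8 and 5, median 0.29). None passed for miR-23a (median 0.047). Pdcd1lg2, which encodes the PD-1 ligand PD-L2, was higher with miR-27a and with miR-24. It stood at 147, 209, 231 and 126 CPM with miR-27a, against 65.1, 105, 70.8 and 80.0 CPM with control. Every miR-27a library was above the 3 deeper control libraries, as was seen for 5.67% of genes. The 65.1 CPM of control replicate 1 rest on few reads. Its log2 fold change was 1.20 ± 0.21 with miR-27a (adjusted p = 0.00614, 0.0943 without the block). That call held in 6 of 8 fits that left out 1 library and was lost without miR-27a replicate 3 (0.0532) or control replicate 3 (0.0719). The fold change was 0.75 ± 0.21 with miR-24 (adjusted p = 0.0489), where levels were 79.9, 142, 151 and 155 CPM.

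The other 2 called with miR-24 were Cd86, the shared ligand of CTLA-4 and CD28, at 17.2, 4.69, 9.94 and 5.96 CPM against 16.3, 1.86, 0.54 and 3.96 CPM with control (2.04 ± 0.58, adjusted p = 0.0491), and Lgals3, which encodes galectin-3, a ligand of LAG-3 (1.07 ± 0.30, adjusted p = 0.046). The 16.3 CPM of Cd86 in control replicate 1 is 1 read. These 3 miR-24 calls sat near the threshold: none held without the block (adjusted p = 0.275, 0.152 and 0.473 for Pdcd1lg2, Cd86 and Lgals3) or without control replicate 1 (0.0615, 0.0519 and 0.0631). Among the 8 fits that left out 1 library, Pdcd1lg2 and Lgals3 were called in 1 each, that without miR-24 replicate 1, with adjusted p-values of up to 0.256 and 0.21 in the others. Cd86 was called in 3, and was lost also without miR-24 replicate 2 (0.059) or 3 (0.243) and control replicate 2 (0.0903) or 3 (0.268). Cd200r1, the receptor gene of Cd200, had means of 45.2, 68.4 and 61.8 CPM with miR-23a, miR-24 and miR-27a. Over control it was not called (-0.20, 0.77 and 0.36, adjusted p = 0.751, 0.146 and 0.482). For miR-23a against miR-24 it was called lower (-0.96 ± 0.27, adjusted p = 0.0392, 0.84 without the block). There 2 of 13 tested genes of this list were called lower and 0 higher, against 5.38% of all genes.

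Of 6 costimulatory counterparts, 2 were called lower and none higher with miR-27a (estimates lower for 5 and higher for 1, list median -0.53), and 1 was called higher and 1 lower with miR-24 (3 and 3, median 0.021). None passed for miR-23a, and the shares of all genes called are those given for the ligands. Cd28, Ctla4 and Icos are neighbours on chromosome 1 (GRCm38), with Ctla4 at chr1:60887000-60915832 between Cd28 at chr1:60716800-60773359 and Icos at chr1:60977927-61000320, all on the plus strand. Cd28, the activating receptor that shares its ligands with CTLA-4, stood at 795, 1220.2, 1038 and 1088 CPM with miR-27a. With control it was at 1433, 2620.4, 2243 and 2195 CPM, with no overlap, a separation seen for 2.21% of genes in that direction. The fold change was -1.02 ± 0.15 (adjusted p = 0.00195, 0.0707 without the block), and the call held in 8 of 8 fits that left out 1 library. Icos, the inducible costimulator, was at 228, 248, 263 and 485 CPM with miR-27a, against 374, 492, 681 and 754 CPM with control (-0.95 ± 0.22, adjusted p = 0.0248, 0.121 without the block), and was called in 3 of 8 such fits, those without miR-27a replicate 4 and control replicates 1 and 2 (0.078 to 0.141 in the others). Beside these, Ctla4 with miR-27a had the estimate of -0.61 that did not pass.

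Cd28 and Icos each carry a miR-27a match, as do 29.99% of the searched genes. The matches are an 8mer in Cd28 at chr1:60770780-60770787 and a 7mer-A1 in Icos at chr1:60999491-60999497, shown for comparison with the members' sites.
Cd28, miR-27a 8mer: ctagtcatgatACTGTGAAcaaaaagggta
Icos, miR-27a 7mer-A1: gaacaaaatttCTGTGAAataaaatctgg
Cd28 also holds 2 matches for miR-23a and 2 for miR-24. An 8mer for miR-27a was found in 6.66% of the searched genes. Of the 4 other named genes lower with miR-27a, described below, Entpd1 and Ikzf1 hold a match and Cd96 and Maf hold none. The UTRs of Cd28, Icos, Entpd1 and Ikzf1 have 3574, 2606, 2573 and 3345 bases. Those of Cd96 and Maf have 216 and 4316, and the median of searched genes was 1247.5. Of the named genes lower with miR-24, Slamf6, Tcf7 and Foxo1 hold a miR-24 match, while Tox2 and Maf hold none. The UTRs of Slamf6, Tcf7, Foxo1, Tox2 and Maf have 4480, 1512, 6240, 1390 and 4316 bases. Slamf6 and Foxo1 also hold matches for miR-23a and miR-27a, and Tcf7 holds 1 for miR-27a. 4632428N05Rik was not among the searched symbols, and 27.1% of searched genes hold a miR-24 match.

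Cd2, an adhesion and costimulatory receptor, was at 291, 193, 284 and 267 CPM with miR-24, against 81.4, 78.7, 47.3 and 92.3 CPM with control. Every miR-24 library of Cd2 was above the 3 deeper control libraries, as was seen for 5.38% of genes. Its log2 fold change of 1.78 ± 0.23 (adjusted p = 0.000373) passed without the block too (0.00946) and in 8 of 8 fits that left out 1 library. Slamf6, a receptor that binds itself on neighbouring cells, was lower with miR-24 at 62.8, 31.8, 13.2 and 18.1 CPM, against 65.1, 71.1, 86.9 and 150 CPM with control (-1.88 ± 0.45, adjusted p = 0.0296, 0.0826 without the block and 0.0775 without the filter on low counts). It was called in 3 of 8 fits that left out 1 library, and was lost without miR-24 replicate 2 (0.0912), 3 (0.129) or 4 (0.106) and control replicate 3 (0.111) or 4 (0.131). In control replicate 1, the 65.1 CPM of Slamf6 and the 81.4 CPM of Cd2 rest on 4 and 5 reads.

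**Figure D5:**
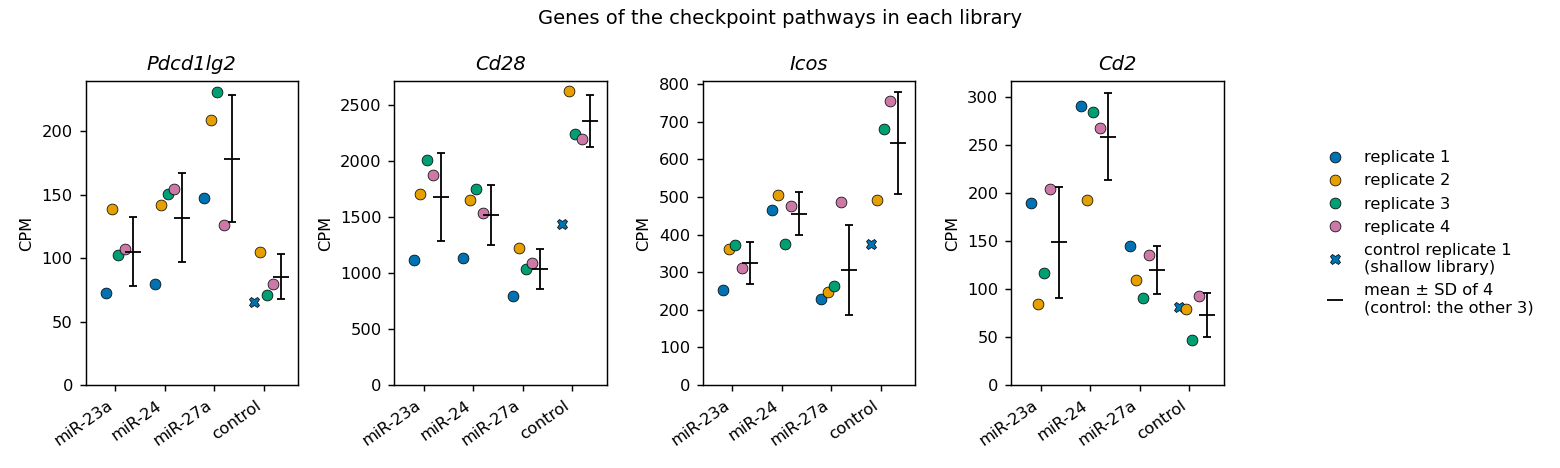
Levels (CPM, linear axis) of the PD-1 ligand gene Pdcd1lg2, of Cd28 and Icos, the neighbours of Ctla4, and of Cd2 in each library, by mimic group and coloured by replicate number, with the mean ± SD of the 4 mimic libraries or the 3 deeper control libraries. Cd28 with miR-27a (795 to 1220.2 CPM) lies below the control libraries, and Cd2 with miR-24 (193 to 291 CPM) above the 3 deeper ones.

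Of 10 tested genes for further inhibitory receptors and ectoenzymes, 1 was called lower with miR-24 (estimates lower for 5 and higher for 5), 2 were called lower with miR-27a (lower for 6 and higher for 4), and none was called higher. The called genes were 4632428N05Rik with miR-24 (-1.59 ± 0.34, adjusted p = 0.0144, 0.226 without the block), and, with miR-27a, Entpd1, the ectoenzyme CD39 that breaks down extracellular ATP (-1.76 ± 0.43, adjusted p = 0.0319, 0.223 without the block), and Cd96, a relative of TIGIT that also binds CD155 (-1.42 ± 0.36, adjusted p = 0.0367, 0.593 without the block). Entpd1 was at 6.77, 10.8, 3.35 and 3.23 CPM with miR-27a, against 0, 17.8, 33.8 and 7.31 CPM with control, and the groups overlapped. Leaving out 1 library kept the call of 4632428N05Rik in 5 of 8 fits, and it was lost without miR-24 replicate 2 (0.0574) or 3 (0.0715) or control replicate 3 (0.105). Entpd1 and Cd96 were each called in 3 of 8 fits and lost without miR-27a replicates 1, 2 and 3 and control replicates 3 and 4, with adjusted p-values of 0.0646 to 0.238 for Entpd1 and 0.0802 to 0.19 for Cd96. Without control replicate 3, the estimate of Entpd1 was -1.08. Of 15 adaptors and enzymes that the receptors use or that dampen T cell receptor signals, 1 was called with miR-27a (estimates higher for 10 and lower for 5), Lck, the kinase that starts T cell receptor signalling, higher with miR-27a (1.16 ± 0.29, adjusted p = 0.0336, 0.163 without the block and 0.0601 without control replicate 1). The Lck call held in 2 of 8 fits, those without miR-27a replicate 4 and control replicate 2, and reached an adjusted p of 0.141 in the others.

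Among 21 transcription factors known to act on checkpoint genes, 6 were called lower with miR-24 and none higher (1 without the block, 4 without control replicate 1), where estimates were lower for 14 and higher for 7 and 4.56% of all genes were called. With miR-27a 2 were called lower and 1 higher (estimates lower for 11 and higher for 10, with 3.07% of all genes called), and none passed for miR-23a. The list medians were -0.56 with miR-24 and -0.26 with miR-27a. Tcf7, which encodes TCF-1, a factor of naive and memory-like T cells, stood at 116, 160, 98.5 and 58.4 CPM with miR-24, against 505, 951, 613 and 325 CPM with control (-2.51 ± 0.25, adjusted p = 4.54e-05, 0.0104 without the block), and was called in 8 of 8 fits that left out 1 library. No miR-24 library reached a control library, a separation seen for 2.74% of genes in that direction. Tox2, a relative of the exhaustion factor TOX, was at 0.334, 4.20, 8.24 and 7.65 CPM with miR-24, against 32.6, 16.8, 33.2 and 18.7 CPM with control (-2.06 ± 0.44, adjusted p = 0.0138, 0.106 without the block). Its call was lost without miR-24 replicate 2 (0.0551) or 3 (0.0661) or control replicate 3 (0.0728). The 0.334 CPM of miR-24 replicate 1 and the 32.6 CPM of control replicate 1 are 2 reads each.

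Maf, which encodes c-Maf, was lower with miR-24 (-1.31 ± 0.30, adjusted p = 0.0209) and with miR-27a (-1.30 ± 0.30, adjusted p = 0.025), and neither passed without the block (0.163 and 0.267). The miR-24 call of Maf was lost without miR-24 replicate 3 (0.118) or 4 (0.0584) or control replicate 3 (0.139), and the miR-27a call without miR-27a replicates 1, 2 or 3 or control replicates 3 or 4 (0.0584 to 0.159). Foxo1, which keeps naive T cells quiescent, was lower with miR-24 (-0.73 ± 0.18, adjusted p = 0.0293, 0.341 without the block), and kept its call in 2 of 8 fits, those without miR-24 replicate 1 and control replicate 1 (0.0569 to 0.131 in the others). With miR-27a, Ikzf1, which encodes Ikaros, stood at 651, 656, 554 and 834 CPM, against 1351, 1278, 1339 and 1570 CPM with control (-1.05 ± 0.16, adjusted p = 0.00278). Egr2, an early response factor linked to T cell anergy, was at 61.0, 42.7, 82.7 and 70.8 CPM with miR-27a, against 32.6, 12.9, 22.9 and 19.7 CPM with control (1.79 ± 0.23, adjusted p = 0.000877). Both passed without the block as well (0.0192 and 0.026), and in 8 of 8 fits that left out 1 library. The 32.6 CPM of Egr2 in control replicate 1 are 2 reads.

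The 15 libraries other than control replicate 1 differ in depth and share replicate numbers across groups. Genes whose pattern was most like a member's were ranked over them by Pearson's r of log2-CPM, among 6030 well-measured genes, as a description. For Cd200 they were Lrrk2 (0.931), Stx7 (0.924) and Itgb1 (0.912), for Btla Asph (0.899), Slc30a4 (0.891) and AI314180 (0.844), for Tigit Wdfy1 (0.880), Ctdsp1 (0.828) and Il27ra (0.808), and for Ctla4 Lpar6 (0.827), Rhob (0.822) and Eif2c3 (0.818). Lag3, Havcr2 and Pdcd1 were too low for this ranking. Between members the largest coefficients over the same libraries were 0.69 for Pdcd1 with Havcr2, 0.68 for Btla with Cd200 and -0.68 for Tigit with Cd200.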

How the data were processed

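Per the labels' protocols, sorted cells gave RNA that the NuGEN Ovation kit amplified for single-end sequencing. Sample titles gave the 4 groups of 4 libraries and their replicate numbers. The authors deposited raw read counts per gene symbol, 1 file per library, with 5 summary lines (64.6% to 77.6% of all reads) that entered neither library sizes nor tests. Bowtie2, TopHat, DESeq and the build mm10 appear in the submitters' processing notes, without versions. The counter, its annotation and its strand setting are not given in the sources used here.

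The deposited counts went through edgeR 4.0.16 in R 4.3.3: filterByExpr by group, TMM scaling, a robust quasi-likelihood fit of group and replicate number over all 16 libraries, two-sided tests and Benjamini-Hochberg adjustment over 12952 genes at 0.05. SE is the fold change over the square root of F. CPM uses TMM-scaled library sizes, log2-CPM a prior count of 2. The step was tested on simulated data. The block follows the rule that defines the members. Same-numbered libraries were correlated after removing group means, over 4746 genes with mean log2-CPM above 5: all 4 passed 0.1 for miR-27a against control (lowest 0.198), miR-23a against miR-24 (0.350) and miR-23a against miR-27a (0.257), and 3 of 4 in the other comparisons. Alternatives were no block, RLE size factors, no filter, DESeq2 1.42.0, limma 3.58.1 with voom and sample weights, the groups alone, and leaving out each library.

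The members, gene lists and tests were chosen with earlier results of these data known. Named genes are all members, list genes called for any mimic against control (up to 4 per list and comparison, by adjusted p), and the 3 genes most like each well-measured member (mean log2-CPM of at least 3). Cd200r1 was added as the receptor gene of Cd200. UTRs came from GENCODE M21; all 7 member symbols matched it directly. Promoters were not used here.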

Additional observations from a re-analysis of the deposited data

Results flagged for a closer look

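Of the 28 groups of 4 libraries formed by 7 members and 4 mimics, 1 held a library far from the others. Ctla4 in the miR-23a group reached 409 CPM in replicate 3, while the other 3 libraries lay between 115 and 155 CPM; the gap was a share of 0.864 of the whole range, above Dixon's critical share for 4 samples. Chance alone flags about 1 in 20 groups. The libraries numbered 3 were also the highest for Ctla4 with miR-27a (268 CPM) and with control (459 CPM). Without that library, Ctla4 with miR-23a over control was at -0.76 in place of -0.49, still not past the threshold. The cause was not tested.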

How the results depend on the processing

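The replicate block decided the members' calls. Without it 0 members passed in the comparison of miR-24 with control, in that of miR-23a with miR-24 and over the 4 groups, and the genes called fell to 17 for miR-23a, 110 for miR-24 and 22 for miR-27a over control, 114 for miR-24 against miR-27a, 142 for miR-23a against miR-24, 71 for miR-23a against miR-27a and 251 over the 4 groups, against 55, 591, 398, 572, 697, 382 and 1254 with it. DESeq2 called the same number of members and 357, 1029, 951, 1005, 1068, 703 and 2323 genes in that order. With limma 0 members passed for miR-23a against miR-24 and over the 4 groups, and 32, 991, 458 and 641 genes for miR-23a against control, miR-24 against miR-27a, miR-23a against miR-24 and the 4 groups; its 1 member for miR-24 against control was Ctla4, with Cd200 at an adjusted p of 0.0518. Fitted alone, the groups gave 2 members for miR-27a against control (Ctla4 and Cd200), with 34 genes for miR-23a against control, 1883 for miR-27a against control and 148 for miR-24 against miR-27a. RLE scaling moved the share of higher calls to 61.8% from 50.8% for miR-24 against control and to 52.9% from 40.7% for miR-24 against miR-27a.

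Leaving out 1 library gave 12 to 334 genes for miR-23a, 123 to 1490 for miR-24 and 51 to 1010 for miR-27a over control, 190 to 737 for miR-24 against miR-27a, 262 to 796 for miR-23a against miR-24, 127 to 413 for miR-23a against miR-27a and 584 to 1780 over the 4 groups. Members called ran from 0 to 2 over the 4 groups, for miR-24 over control and for miR-23a against miR-24, and were 0 in every such fit of the other comparisons.

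Signs of small, uncalled estimates turned. Tigit with miR-23a over control was 0.063 without the block, 0.0077 with RLE and 0.040 with DESeq2, and -0.23 to 0.22 leaving out 1 library. Havcr2 with miR-24 over control was -0.25 without the block and -0.030 with limma, and -0.32 to 0.59 leaving out 1 library. Pdcd1 for miR-23a against miR-24 was -0.026 without the block and -0.0075 with limma, and -0.079 to 0.77 leaving out 1 library. Havcr2 for miR-23a against miR-27a was -0.12 without the block, and -0.21 to 0.31 leaving out 1 library. In such fits Havcr2 ran from -0.57 to 0.18 for miR-23a and from -0.61 to 0.18 for miR-27a over control, Cd200 from -0.039 to 0.50 for miR-23a over control, Btla from -0.15 to 0.36 for miR-27a over control, and Ctla4 from -0.14 to 0.30 for miR-23a against miR-27a. For miR-24 against miR-27a they were -0.51 to 0.092 for Ctla4, -0.29 to 0.58 for Pdcd1, -0.042 to 0.56 for Lag3 and -0.058 to 0.91 for Btla. The cause was not tested. Depth limits Pdcd1, Havcr2 and Lag3, and control replicate 1 says little of any member but Ctla4.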
